A study of Mus musculus with 4 samples.

Results

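This report describes the mouse zinc finger genes whose symbol is Zfp followed by 3 digits of which the first is 9, from Zfp900 to Zfp999, in a mouse ovarian cancer cell line cultured with or without decitabine. The members were chosen by symbol alone, as rows of the deposited array table that carry exactly 1 such symbol, with the row of highest mean kept for each gene. That gave 47 genes out of 22180 tested, from 52 rows. The cells were BR5FVB1-Akt cells, which the labels call an ovarian cancer line, and their genotype is not given in the sources used here. The control group was 2 untreated samples, and the treated group was 2 samples exposed to 10 uM decitabine for 72 h. All samples were grown in the same serum-containing medium, and total RNA of each was hybridised to 1 Affymetrix Mouse Gene ST array. The replicates are labelled biological, with no word on whether the cultures were separate, so p-values cover only the spread between these 4 arrays, which may be technical.

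Most genes of this kind encode KRAB zinc finger proteins. Their zinc fingers read DNA sequence, and their KRAB domain recruits the corepressor TRIM28, which brings in the histone H3 lysine 9 methyltransferase SETDB1 and HP1 proteins and so silences the bound site. Many of the bound sites are retrotransposons, and the genes themselves lie in clusters that arose by tandem duplication and differ widely between mouse and human. Decitabine is a cytidine analogue that traps DNA methyltransferases on replicating DNA and lowers DNA methylation, a mark that acts beside H3 lysine 9 methylation at many such loci. The question here was which of these genes differed in RNA level after decitabine. Close copies within a cluster can share probe sequence. Probe sequences were not examined here, so which copy a row measured was not checked for any member.

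No Zfp900 to Zfp999 gene passed the test over all genes, in either direction. The members were spread narrowly around 0, with a median log2 fold change (decitabine over control) of −0.05 and a range from −0.56 for Zfp964 to 0.52 for Zfp972. In limma with Benjamini-Hochberg adjustment the smallest adjusted p of any member was 0.234, for Zfp963, against a threshold of 0.05. Over all genes 0.131% were called higher, and 0.0135% were called lower. Without adjustment, at a p under 0.05, 1 member was higher (Zfp948) and 4 were lower (Zfp963, Zfp964, Zfp974 and Zfp930), where 7.34% of all genes were higher and 6.97% lower. When the variance model was given an intensity trend, which lets the spread depend on brightness, Zfp948 rose (adjusted p = 0.0197) and Zfp963 fell (adjusted p = 0.0372), beside 3.68% of all genes called higher and 3.60% lower in that fit. Neither passed when the same trend was fitted over all 41345 rows, where the smallest adjusted p of a member was 0.202.

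The arrays themselves showed the same picture. Both decitabine arrays lay above both control arrays for 6 members (12.8%, against 23.4% of all genes) and below them for 9 (19.1%, against 22.5%), so 32 of the 47 overlapped. The 6 higher members were Zfp948, Zfp995, Zfp957, Zfp994, Zfp939 and Zfp961, and the 9 lower were Zfp964, Zfp963, Zfp941, Zfp930, Zfp974, Zfp956, Zfp940, Zfp949 and Zfp954. The 95% confidence interval excluded a 2-fold rise for 46 of the 47 members (97.9%, against 97.8% of all genes), the exception being Zfp972. It excluded a 2-fold fall for 45 members (95.7%, against 98.2%), the exceptions being Zfp964 and Zfp975. Intervals from the fit without a trend may be too narrow for dim rows, and no detection level could be set from these values.

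**Figure D1:**
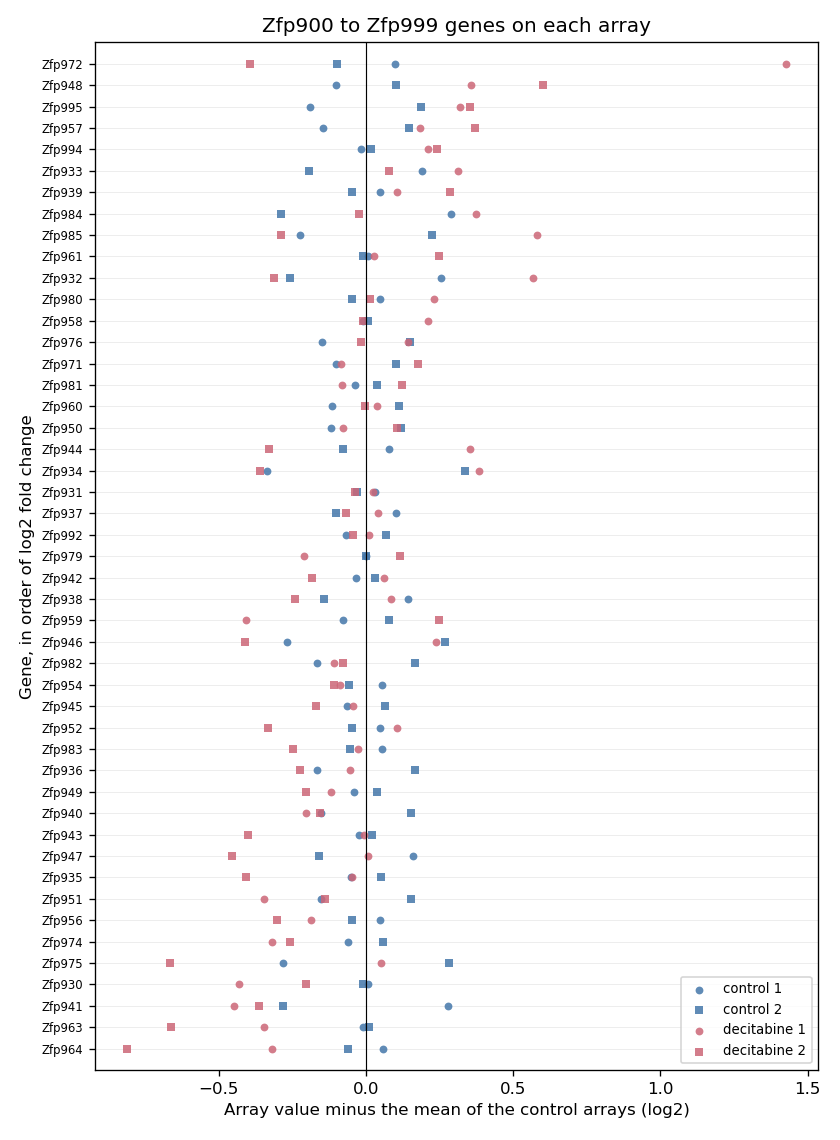
Each of the 47 genes on each array, as the array's log2 value minus the mean of the 2 control arrays, with genes in order of log2 fold change. Circles and squares mark replicates 1 and 2 of the control (blue) and decitabine (red) groups, and the groups overlap for 32 genes.

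Of the 4 lowest log2 fold changes, 3 came from neighbouring genes of chromosome 8. Zfp964 (row 17501688) had log2 values of 4.11 and 3.99 in control cells and 3.73 and 3.24 with decitabine. Zfp963 (row 17509859) had 6.74 and 6.76 on the control arrays and 6.40 and 6.09 with decitabine. Zfp930 (row 17501672) had 6.89 and 6.87 on the control arrays and 6.45 and 6.67 with decitabine. In all 3 genes both decitabine arrays were the low ones, and the control arrays differed by less than the decitabine arrays did. These genes were picked for their low values, and 22.5% of all genes had arrays separated downward. The log2 fold changes were −0.56 ± 0.18 (SE, n = 2 per group) for Zfp964, −0.50 ± 0.14 for Zfp963 and −0.32 ± 0.12 for Zfp930. Their adjusted p was 0.292, 0.234 and 0.333 in limma. That of Zfp963 passed with the intensity trend, as given above, and among genes above the median level (adjusted p = 0.0460), where 5.55% of the 11090 genes tested were called lower. Zfp964, with a mean log2 level of 3.77, was among the dimmest 25% of genes and so was not tested in that filtered fit. With any 1 array left out, Zfp964 ranged from −0.81 to −0.32, Zfp963 from −0.66 to −0.34 and Zfp930 from −0.43 to −0.20.

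On chromosome 8, only these 3 members have starts within 1 Mb of the next member, the distance used here to define a run of neighbours in RefSeq assembly GRCm38.p6. The run was singled out after its values were seen and has no test of its own. The 4 other tested genes inside it did not share the low values. They had log2 fold changes of −0.08 for Zfp868 and 0.21 for Zfp869, both zinc finger genes by symbol, 0.19 for Gm10033 and −0.06 for D130040H23Rik. Zfp869 lies between Zfp964 and Zfp963 and was higher on both decitabine arrays than on both control arrays. The remaining members of chromosome 8 stood outside the run, with Zfp958 at 0.10 ± 0.12 and Zfp961 at 0.14 ± 0.12.

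Zfp948 on chromosome 17 (row 17333946) had the largest positive log2 fold change among members whose arrays did not overlap. It had 7.54 and 7.74 on the control arrays and 7.996 and 8.24 with decitabine. The log2 fold change was 0.48 ± 0.14, a 1.39-fold difference, with an adjusted p of 0.244 in limma. Its decitabine arrays were both above its controls, and leaving out any 1 array gave values from 0.36 to 0.60. Zfp995, in the same run, had 4.34 and 4.72 on the control arrays and 4.85 and 4.88 with decitabine (0.34 ± 0.15). Zfp994 had 5.32 and 5.35 on the control arrays and 5.55 and 5.58 with decitabine (0.23 ± 0.10). In both genes the groups were separated, by a small margin in Zfp995, and neither passed the test (adjusted p = 0.409 and 0.376 in limma).

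That run on chromosome 17 was the longest, with 10 members. Its median was −0.07 and its range −0.22 for Zfp947 to 0.48 for Zfp948, with 4 members positive and 6 negative. The members next to the separated ones did not follow them: Zfp983, beside Zfp948, was at −0.14 ± 0.12, and Zfp942 and Zfp943, beside Zfp995, were at −0.06 ± 0.12 and −0.20 ± 0.16. The 10 other tested genes between these members had a median of −0.15. Among them Zfp760 and Gm7052 were named after their values were seen. Zfp760 had 7.62 and 7.49 on the control arrays and 7.15 and 7.17 with decitabine (−0.40 ± 0.10). Its adjusted p in limma was 0.220, and it was 0.0249 with the intensity trend and 0.167 with that trend over all rows. Gm7052 went the other way, at 0.53 ± 0.21 with both decitabine arrays above both controls (adjusted p = 0.353 in limma).

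**Figure D2:**
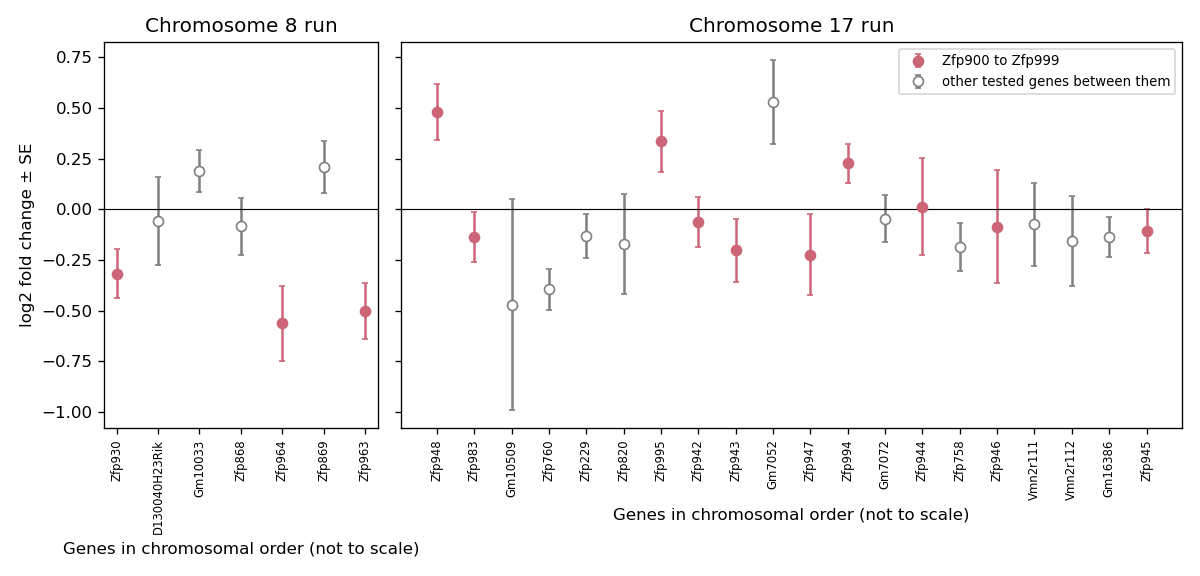
log2 fold change with its standard error for every tested gene of the chromosome 8 run (left) and the chromosome 17 run (right), in chromosomal order and not to scale. Filled red points are Zfp900 to Zfp999 genes and open grey points the other genes between them; the 3 red points on the left lie between −0.32 and −0.56, while their neighbours lie between −0.08 and 0.21.

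The promoters shown are those of the 2 lowest members, Zfp964 and Zfp963, and of Zfp948 and Zfp995. Zfp948 and Zfp995 had the largest positive log2 fold changes among members with separated arrays. The promoters were chosen because decitabine lowers DNA methylation and because Zfp963 and Zfp964 were low together. They are RefSeq windows of GRCm38.p6, each 300 bases long, from 250 before to 50 after an annotated start, written 5′ to 3′ on the strand of the gene with every CpG in capitals. Zfp963 is at chr8:69749913-69750212 on the minus strand, and Zfp964 at chr8:69654306-69654605 on the plus strand. Zfp948 is at chr17:21566728-21567027 on the plus strand, and Zfp995 at chr17:21909877-21910176 on the minus strand.
Zfp963: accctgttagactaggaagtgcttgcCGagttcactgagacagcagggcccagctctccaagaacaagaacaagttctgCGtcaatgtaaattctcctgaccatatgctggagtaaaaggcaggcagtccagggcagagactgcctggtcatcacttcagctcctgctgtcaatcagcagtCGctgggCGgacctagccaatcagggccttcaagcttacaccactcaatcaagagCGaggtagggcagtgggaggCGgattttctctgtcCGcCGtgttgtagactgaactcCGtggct
Zfp964: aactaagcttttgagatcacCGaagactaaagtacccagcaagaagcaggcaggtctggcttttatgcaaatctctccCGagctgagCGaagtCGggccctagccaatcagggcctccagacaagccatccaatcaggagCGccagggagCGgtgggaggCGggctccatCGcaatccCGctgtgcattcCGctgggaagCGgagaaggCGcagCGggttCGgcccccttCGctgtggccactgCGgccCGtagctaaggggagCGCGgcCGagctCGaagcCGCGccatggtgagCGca
Zfp948: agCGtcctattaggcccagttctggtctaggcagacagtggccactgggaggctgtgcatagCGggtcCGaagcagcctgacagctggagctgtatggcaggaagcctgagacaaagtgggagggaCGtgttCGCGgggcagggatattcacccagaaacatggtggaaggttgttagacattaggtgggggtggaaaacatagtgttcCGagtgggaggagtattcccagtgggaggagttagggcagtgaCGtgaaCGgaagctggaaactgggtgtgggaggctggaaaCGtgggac
Zfp995: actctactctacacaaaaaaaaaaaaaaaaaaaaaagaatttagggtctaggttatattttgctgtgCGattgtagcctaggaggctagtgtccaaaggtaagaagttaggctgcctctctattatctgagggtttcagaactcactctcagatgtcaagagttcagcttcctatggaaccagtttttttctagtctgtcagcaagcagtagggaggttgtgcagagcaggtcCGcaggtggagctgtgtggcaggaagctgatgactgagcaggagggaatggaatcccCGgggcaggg
The Zfp964 window held 24 CpGs, the most of any member, and the Zfp963 window 9. The Zfp948 window held 10 and the Zfp995 window 3, the fewest of any member, a count shared with other members. DNA methylation was not measured in this series.

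The windows of Zfp963 and Zfp964 shared an unbroken run of 18 bases, shown with its CCAAT sequence in capitals. A CCAAT box is a promoter element with this sequence that is bound by the factor NF-Y. Binding was not measured here.
Shared run: cctagCCAATcagggcct
The run begins 58 bases before the start in Zfp963 and 152 before it in Zfp964. Searched on both strands, it occurred in the windows of 2 genes out of 27025, these 2 alone. Zfp930, also low in the chromosome 8 run, had no promoter window and could not be searched. The longest run that the Zfp948 window shared with either of them was 10 bases. The search was made after the sequences were seen, and genes that arose by duplication share sequence by descent.

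The sequence CCAAT was frequent among the windows of the members as a whole. With 1 window per gene (that with the most CpGs), 43 of the 47 members had a window, and CCAAT on either strand was in 32 of them (74.4%), against 41.0% of 234 other plain Zfp genes and 37.4% of 27025 genes. The longer form CCAATCAG, which contains CCAAT, was in 14 members (32.6%), against 9.40% and 4.32%. Among the 14 holders of the longer form, Zfp963, Zfp964 and Zfp941 had both decitabine arrays below both control arrays, and Zfp961 had both above. Over all genes, 22.5% had both below and 23.4% both above. The longer form lies within the 18-base run taken from Zfp963 and Zfp964, so these genes hold it by construction. The groups overlapped for the other holders. TATAAA was in 0 of the 43 windows, against 6.84% of the other plain Zfp genes and 13.8% of all genes. The ETS-type motif CCGGAAG, which overlaps neither, was in 8 (18.6%, against 20.9% and 9.39%). These are descriptions of windows that are related by descent, with no test.

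The number of CpGs per member window ran from 3 to 24 with a median of 9, beside 16 in the other plain Zfp genes and 8 in all genes. Across the 43 members, which are not independent replicates and share the same 4 arrays, Pearson's r between CpG number and log2 fold change was −0.28 and Spearman's rho −0.22. The 17 members with 10 or more CpGs had a median log2 fold change of −0.09 and the 26 with fewer a median of −0.01. Members with few CpGs and members with many were found on both sides of 0.

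**Figure D3:**
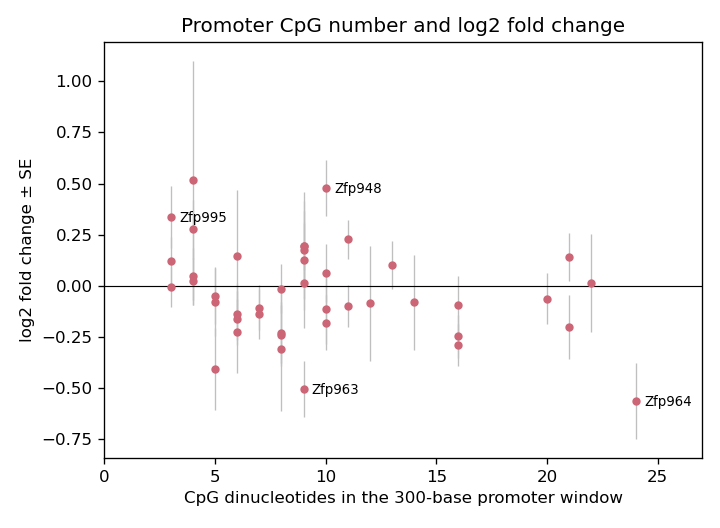
log2 fold change with its standard error against the number of CpG dinucleotides in the 300-base promoter window for the 43 members with a window. Points scatter around 0 over the whole range from 3 to 24 CpGs, and Zfp964 holds both the most CpGs and the lowest fold change.

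The members of chromosome 7 were mostly below 0. Of 8, 6 were negative, 4 had both decitabine arrays below both control arrays and 1 had both above, and their median was −0.16. Over all genes 49.3% were negative, 22.5% had separated arrays downward and 23.4% upward. Zfp941 had 5.64 and 5.08 on the control arrays and 4.92 and 5.003 with decitabine (−0.40 ± 0.20). Its control arrays differed by more than the groups' means did, and without the first control array its value was −0.12. Zfp974 had 5.395 and 5.51 on the control arrays and 5.14 and 5.20 with decitabine (−0.29 ± 0.10, adjusted p = 0.325 in limma). Zfp975 had 5.51 and 6.08 on the control arrays and 5.85 and 5.13 with decitabine (−0.31 ± 0.30). The groups of Zfp975 overlapped, and without the second decitabine array its value was 0.05. Zfp940 (−0.18 ± 0.14), Zfp936 (−0.14 ± 0.15) and Zfp954 (−0.10 ± 0.10) were closer to 0, and Zfp976 was at 0.06 ± 0.14.

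Zfp939, also of chromosome 7, was measured by rows that went opposite ways. The kept row 17476881 had 4.43 and 4.33 on the control arrays and 4.48 and 4.66 with decitabine (0.19 ± 0.11). The other, row 17489977, had 4.11 and 3.87 on the control arrays and 3.28 and 3.71 with decitabine (−0.50 ± 0.20 in the fit of all rows). Each row separated the groups, in opposite directions, and their mean gave −0.15, so no direction can be given for this gene. Of the 4 members with several rows, Zfp937 also had a row of opposite sign, at −0.01 in the kept row and 0.22 in the other. For Zfp943 and Zfp979 every row was below 0. The dimmest Zfp979 row was at −0.63 ± 0.18, with log2 values of 1.56 and 1.93 on the control arrays and 1.21 and 1.01 with decitabine. The kept Zfp979 row was at −0.05.

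The 8 members of chromosome 4 lay close to 0 and formed a single run in the distal part of the chromosome. Deletion of this zinc finger cluster has been linked to retrotransposon activity in mice, and Zfp982 within it has been described as a regulator of pluripotency genes in embryonic stem cells. Their log2 fold changes ran from −0.09 for Zfp982 to 0.20 for Zfp933, with a median of 0.07, and the groups overlapped for all 8. Zfp992 had 7.27 and 7.41 on the control arrays and 7.35 and 7.30 with decitabine (−0.02 ± 0.10). Zfp984 had 6.77 and 6.19 on the control arrays and 6.86 and 6.46 with decitabine (0.18 ± 0.24). Zfp933 had 5.67 and 5.28 on the control arrays and 5.79 and 5.55 with decitabine (0.20 ± 0.17). In Zfp984 and Zfp933 the first array of each group was the higher one, and the gap between control arrays exceeded that between group means. Zfp980, Zfp981, Zfp985 and Zfp979 were at 0.12, 0.02, 0.15 and −0.05.

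On chromosome 2, Zfp972 had the highest log2 fold change of all members and the least certain one. Its values were 2.97 and 2.77 on the control arrays and 4.30 and 2.48 with decitabine (0.52 ± 0.58). The first decitabine array stood above both controls and the second below both, and without the first the value was −0.39. The neighbours Zfp971 (0.05 ± 0.14) and Zfp931 (−0.01 ± 0.10) were close to 0, as was Zfp937 (−0.01 ± 0.12).

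The other members were scattered over the genome. Zfp957 on chromosome 14 had 3.79 and 4.08 on the control arrays and 4.12 and 4.31 with decitabine (0.28 ± 0.14). Zfp956 on chromosome 6 had 5.73 and 5.64 on the control arrays and 5.49 and 5.38 with decitabine (−0.25 ± 0.11). Zfp951 on chromosome 5 had 2.27 and 2.58 on the control arrays and 2.08 and 2.29 with decitabine (−0.24 ± 0.15). The groups were separated in Zfp957 and Zfp956 and overlapped in Zfp951, and none of these genes passed. Zfp932, a KRAB zinc finger gene known to repress endogenous retroviruses in embryonic stem cells, was at 0.13 ± 0.33, with 2.58 and 2.07 on the control arrays and 2.90 and 2.02 with decitabine. Zfp949 on chromosome 9 was at −0.16 ± 0.10. Zfp934 and Zfp935 on chromosome 13 were at 0.01 ± 0.33 and −0.23 ± 0.15, Zfp938 on chromosome 10 at −0.08 ± 0.16 and Zfp950 on chromosome 19 at 0.01 ± 0.13.

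Of the 4 members with the brightest rows, Zfp948 and Zfp992 are described above. Zfp960 on chromosome 17 had 7.82 and 8.05 on the control arrays and 7.97 and 7.93 with decitabine (0.02 ± 0.12, a sign that turned with centred arrays). Zfp945 had 7.74 and 7.87 on the control arrays and 7.76 and 7.63 with decitabine (−0.11 ± 0.11). For Zfp945 and Zfp960 the decitabine arrays lay at or inside the spread of the controls except for the second Zfp945 array. The remaining chromosome 17 members, Zfp944, Zfp946, Zfp952 and Zfp959, lay between −0.11 and 0.01 with overlapping groups.

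The decitabine arrays often lay on opposite sides of the controls for these genes. Against the control mean, 8 members were above on both decitabine arrays, 16 were below on both and 23 (48.9%) were above on one and below on the other, against 32.5% of all genes and 30.1% of other plain Zfp genes. The median over the members was 0.02 on the first decitabine array and −0.16 on the second, while over all genes it was −0.00233 and 0.00907. The median gap between the decitabine arrays was 0.22 for the members and 0.14 for all genes, and between the control arrays 0.16 and 0.12. The sign of the members' median thus depended on the array: it was −0.16 without the first decitabine array and 0.02 without the second.

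**Figure D4:**
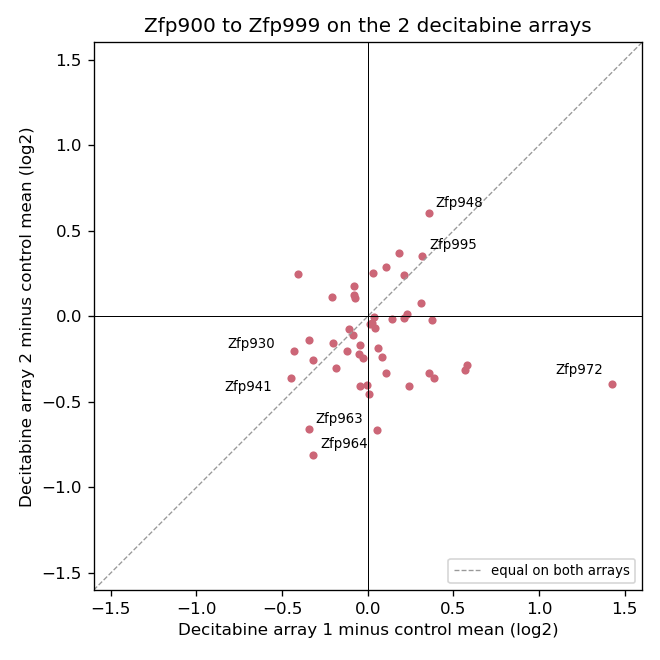
Each member's log2 value on the first decitabine array (horizontal) and the second (vertical), both minus the mean of the control arrays, with the dashed line marking equal values. Zfp963, Zfp964, Zfp930 and Zfp941 are below 0 on both, Zfp948 and Zfp995 above 0 on both, and Zfp972 is at 1.43 on the first and −0.39 on the second.

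The 289 other genes with a plain Zfp symbol, such as Zfp760, had a similar centre, with a median of −0.06 and quartiles of −0.18 and 0.07, beside −0.17 and 0.11 for the members and −0.13 and 0.14 for all genes. Of these 289, 0 passed in limma in either direction, beside 0.131% of all genes called higher and 0.0135% lower. An unadjusted p under 0.05 was reached upward by 8 (2.77%, against 7.34% of all genes) and downward by 28 (9.69%, against 6.97%). Their arrays were separated downward for 97 genes (33.6%) and upward for 48 (16.6%), beside 22.5% and 23.4% of all genes. Below 0 lay 57.4% of the members, 61.6% of the other plain Zfp genes and 49.3% of all genes. Whether the members differ from the other zinc finger genes was not tested.

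**Figure D5:**
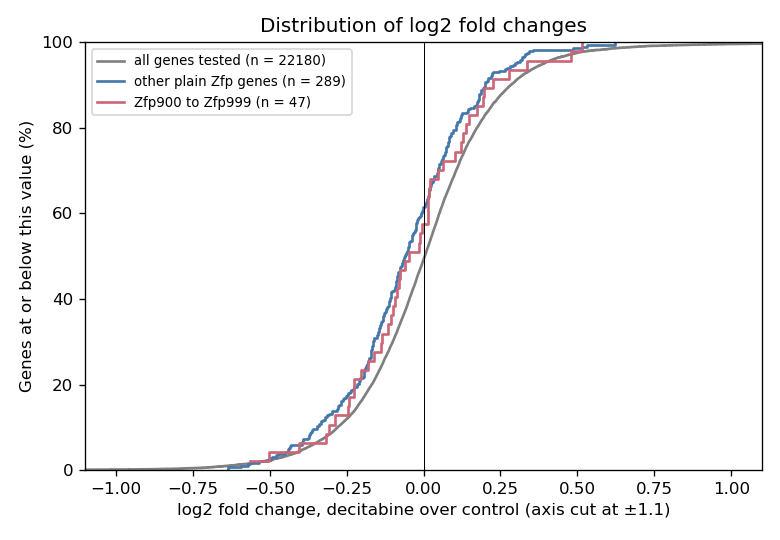
Cumulative share of genes against log2 fold change for the 47 members (red), the 289 other plain Zfp genes (blue) and all 22180 genes tested (grey), with the horizontal axis cut at ±1.1. The medians are −0.05, −0.06 and 0.004.

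The machinery that these proteins recruit was measured on the same arrays. Of 22 entries in a list of KRAB corepressors and partners 19 were found, and 0 passed in limma over all genes, while 2 reached an unadjusted p under 0.05 upward and 0 downward, beside 7.34% and 6.97% of all genes. Trim28, the corepressor itself, had 9.96 and 10.03 on the control arrays and 9.97 and 9.88 with decitabine (−0.07 ± 0.10). Setdb1, the methyltransferase, had 7.68 and 7.69 on the control arrays and 7.74 and 7.67 with decitabine (0.02 ± 0.10), and the groups of both genes overlapped. Atf7ip, the partner of SETDB1, had 10.25 and 10.31 on the control arrays and 10.11 and 10.11 with decitabine (−0.17 ± 0.10), so both decitabine arrays were below both controls. Among the HP1 genes, Cbx1 had 8.47 and 8.44 on the control arrays and 8.598 and 8.53 with decitabine (0.11 ± 0.10). Cbx3 had 11.15 and 11.19 on the control arrays and 11.202 and 11.09 with decitabine (−0.02 ± 0.10). Of these, Cbx1 had separated arrays and Cbx3 did not. Cbx5 had 9.297 and 9.47 on the control arrays and 9.396 and 9.35 with decitabine (−0.01 ± 0.11), with both decitabine arrays inside the spread of the controls. The signs of Setdb1, Cbx3 and Cbx5 were not stable, Setdb1 turning with centred arrays and Cbx3 with quantile normalization. For all 19 the interval excluded a 2-fold change in either direction.

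The members of that list that were higher at an unadjusted p under 0.05 were Uhrf1, which directs maintenance methylation to replicated DNA, and Resf1, a factor of retroelement silencing named after its value was seen. Uhrf1 had 8.78 and 8.94 on the control arrays and 9.12 and 9.17 with decitabine (0.28 ± 0.11). Resf1 had 8.15 and 8.24 on the control arrays and 8.59 and 8.43 with decitabine (0.31 ± 0.11). Their decitabine arrays did not overlap the controls. Both passed with the intensity trend (adjusted p = 0.0419 and 0.0450), and neither passed in limma without it (0.337 and 0.320) or with the trend over all rows (0.241 and 0.244). Dnmt1, the maintenance methyltransferase that decitabine traps, had 9.39 and 9.45 on the control arrays and 9.57 and 9.64 with decitabine (0.19 ± 0.10), so both decitabine arrays were above both controls. Separated arrays were seen upward for 8 of the 19 and downward for 1, beside 23.4% and 22.5% of all genes.

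The 4 arrays had medians of 4.598 to 4.660 over all rows. Of the markers of the labelled tissue, 8 of 10 epithelial and ovarian surface genes lay above the median level of all genes, as did 5 of 5 fibroblast markers, 1 of 5 leukocyte, 1 of 4 endothelial and 1 of 3 germ cell markers. Summed over the epithelial list, the log2 values ran from 74.5 to 74.8 on the control arrays and from 76.6 to 77.2 on the decitabine arrays, and of the 10, 0 passed in limma. With the intensity trend 4 passed upward and 2 downward (Upk3b and Wt1), beside 3.68% and 3.60% of all genes. The summed leukocyte list ran from 19.2 to 19.4 and from 19.96 to 20.8, and the germ cell list from 11.7 to 12.0 and from 12.0 to 12.1. That germ cell sum joins opposite moves: Ddx4 was at 0.57 ± 0.15, Mael at −0.06 ± 0.12 and Dazl at −0.33 ± 0.16. Ddx4 had both decitabine arrays above both controls, Dazl both below, and Mael overlapped. The endothelial list ran from 17.1 to 17.9 and from 18.3 to 18.7, and the fibroblast list from 48.4 to 48.8 and from 49.8 to 49.9. The fibroblast markers did not move together. Thy1 was at 1.48 ± 0.17, Col1a1 at 0.14 ± 0.10 and Dcn at 0.02 ± 0.10. Col1a2 was at −0.09 ± 0.10 and Pdgfra at −0.28 ± 0.10, both with decitabine arrays below the controls. With the intensity trend Thy1 passed upward and Pdgfra downward, and of the leukocyte list Cd68 passed upward. The part of these shifts in the zinc finger values was not tested. In bulk RNA, a change in the share of cells of a type cannot be told apart from a change in RNA per cell.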

How the data were processed

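The deposited table holds 1 log2 value per probe row and array for 4 Affymetrix arrays, as the authors deposited it. The values were taken as log2 because they run from about 0.55 to 13.3 without gaps. Summarisation, background correction and scaling are not given in the sources used here, and with another log base the fold changes would differ. The platform table gave exactly 1 symbol to 23521 of 41345 rows. The highest-mean row per gene was kept, which left 22180 genes. These were compared between groups in limma (version 3.58.1, R 4.3.3) by a two-sided moderated test without an intensity trend or covariates, with Benjamini-Hochberg adjustment over all of them and a threshold of 0.05. Fold changes are decitabine over control with limma's standard error. The number of arrays limited the precision. All 47 members matched a RefSeq gene by identifier. Promoter windows and gene order come from RefSeq GRCm38.p6, and the values themselves come with no genome build. Protein sequences were not used here. Values on every array are given for the 8 highest and 8 lowest members by fold change, the 4 with the brightest rows, those called with the trend, and a fixed set of corepressors; a few more were added after their values were seen. The members and lists were chosen with earlier results of these data known. The fit was tested on simulated data with known changes, where it called most of the large ones and missed the smaller ones, so the absence of a call does not show the absence of a change. Alternatives covered scaling, filters on dim genes, variance model, replicate block, rows kept and leaving out each array. Plots used matplotlib 3.10.9 (Python 3.11.15).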

Additional observations from a re-analysis of the deposited data

How the results depend on the processing

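With 2 arrays per group and no detection level, small differences in dim genes could not be resolved. The count of members called was 0 in each direction in the reported fit. With the intensity trend it became 1 higher and 1 lower (2.13% each, against 3.68% and 3.60% of all genes). Among the 27 members above the median level it was 1 lower (5.55% of all genes in that fit). At an unadjusted p under 0.05 it was 1 higher and 4 lower (2.13% and 8.51%, against 7.34% and 6.97% of all genes). No member was called under the other settings, among them the replicate block (smallest adjusted p = 0.289). The arrays that share a replicate number were not shown to be paired, with a correlation of −0.018 between their differences over all genes and 0.11 over the members, and the block moved the calls over all genes from 32 to 0. Among members above the median level, 3 had separated arrays upward (11.1%, against 28.6% of all genes there) and 5 downward (18.5%, against 30%). With 1 array left out there were 10 to 17 upward and 13 to 26 downward, since fewer arrays separate more easily, beside 35.2% to 39.6% and 34% to 37.5% of all genes. The members' median ranged from −0.16 to 0.024 with 1 array left out. These ends are the second and the first decitabine array alone against the control mean, a repeat of the same calculation added after the data were seen. Of the 19 named members, Zfp939 turned to −0.15 with the mean of its rows and Zfp960 to −0.0069 with centred arrays. Of the corepressors, Setdb1 turned to −0.0065 with centred arrays and Cbx3 to 0.035 with quantile normalization. With 1 array left out, signs turned in Zfp960 (−0.10 to 0.13), Zfp972 (−0.39 to 1.43), Zfp975 (−0.67 to 0.051), Zfp984 (−0.11 to 0.46), Zfp992 (−0.083 to 0.051), Setdb1 (−0.016 to 0.053), Cbx3 (−0.073 to 0.034) and Cbx5 (−0.10 to 0.075). The other 14 named members kept their sign with every array left out. Zfp948 and Zfp963 ranged over adjusted p from 0.0197 to 0.640 and from 0.0372 to 0.605. The causes were not tested.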

Other observations

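Another 9 symbols of the series Zfp900 to Zfp999 had no row of their own and were present only in rows that carry several gene symbols, which were left out of the gene tests. These were Zfp953, Zfp965, Zfp966, Zfp967, Zfp968, Zfp970, Zfp977, Zfp991 and Zfp993. In all, 21 rows carried from 2 to 13 symbols with at least 1 of this series among them, so a value there belongs to no single gene. These rows centred on −0.01, and 14 of them lay within 0.1 of 0 on the log2 scale. In the limma fit of all 41345 rows 0 of them passed (smallest adjusted p = 0.498). Of the 22180 kept gene rows 0 passed in that fit either (smallest adjusted p = 0.282). An unadjusted p under 0.05 was reached by 0 upward and 1 downward, and the share over all rows is not given here. Both decitabine arrays lay below both control arrays in 6 of the 21 rows and above them in 1, beside 22.5% and 23.4% of the 22180 genes. Rows 17380491 and 17395272, both among the 6, held the same values on every array and so are not separate measurements. Except for a row shared by Zfp953 and Zfp456, the lower rows all carried Zfp966, Zfp967, Zfp970 and Zfp971. Their log2 fold changes lay between −0.08 and −0.05. The row that reached an unadjusted p under 0.05 was shared by Zfp953 and Zfp456. It had log2 values of 5.86 and 5.74 on the control arrays and 5.32 and 4.75 with decitabine (−0.76 ± 0.23). Another row, shared by Zfp595 and Zfp953, was at −0.10 ± 0.18. The row shared by Zfp600, Zfp979, Zfp980, Zfp981 and Rex2 had 4.46 and 4.42 on the control arrays and 4.70 and 4.76 with decitabine (0.29 ± 0.11), above the values of the rows of Zfp979, Zfp980 and Zfp981 alone. These rows were singled out after their values were seen.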
